A study of Mus musculus with 78 samples.

Results

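The genes described here are 42 mouse genes of the amino acid arm of the integrated stress response, the set of ATF4-linked stress regulators, amino acid enzymes and transporters, and cytosolic tRNA synthetases. They were picked by name from 54446 gene records in the RNA-seq tables, with the fall of many of them after 2 h of TRIM28 degradation already known. All 42 were found. By role they comprised 7 transcription factors and feedback regulators, 5 stress effectors, 10 enzymes of amino acid and one-carbon synthesis, 8 amino acid transporters and 12 cytosolic tRNA synthetases.

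The data came from V6.5 mouse embryonic stem cells (mESCs), a clonal line in which Trim28, which encodes a heterochromatin corepressor of endogenous retroviruses (ERVs), carries an FKBP degron tag. The ligand dTAG-13 at 500 nM recruits the tagged protein to an E3 ligase, so TRIM28 protein is removed while its transcript is not the target. RNA-seq (poly(A) RNA) covered a DMSO control and dTAG-13 treatment for 2 h, 6 h, 24 h or 96 h, with 3 libraries per group. These mESCs were grown in serum and LIF on feeder fibroblasts and depleted of feeders before treatment. Newly made RNA was measured by TT-SLAM-seq, in which a short pulse of 4-thiouridine marks nascent transcripts, after DMSO or 2 h, 6 h or 24 h of dTAG-13, with 3 libraries per group and DMSO libraries of its own.

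Another line, here called the shERV line, carried the degron together with doxycycline (Dox)-inducible hairpins against IAP, MMERVK10C, MMERVK9C and MMETn elements. Its labels give a feeder layer for maintenance, the study's methods describe feeder depletion before RNA-seq in general, and it was sequenced from ribosomal-RNA-depleted total RNA after DMSO, after 24 h of dTAG-13, and after 24 h of dTAG-13 with Dox, with 3 libraries each. The sample titles give Dox to the last group, whereas a treatment note lists a 24 h Dox pre-treatment for all 3 groups, so the titles were followed here. Line and library kit differ together from the time course, and culture may, and these cannot be told apart. Untreated parental V6.5 mESCs and neural progenitor cells (NPCs) in neural medium with DMSO, each with 3 libraries, were also sequenced. The time-course, TT-SLAM-seq and shERV replicates are described as biological, without saying what separated them, and for parental cells and NPCs nothing is stated. The p-values thus measure the spread between these libraries, which may be partly technical.

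ATF4 is a transcription factor whose own translation rises when eIF2 is phosphorylated, for example by the kinase GCN2 when uncharged tRNA accumulates. It activates genes that make, import and load amino acids onto tRNA, and it induces feedback genes such as Trib3 and Ddit3 that modulate its own output. Many of these promoters hold a composite C/EBP-ATF element, in which a C/EBP core joins an ATF/CRE core, and stem cells in rich medium keep a basal level of this programme. ATF4 output is commonly adjusted by medium age and nutrient supply, and in the time course DMSO medium was added 24 h before collection, while dTAG-13 medium was added at the start of each treatment and renewed every day. At 2 h and 6 h the drug and the fresher medium cannot be told apart. In the 24 h and 96 h groups the medium was at most about a day old, and how long before collection it was last renewed at 96 h is not given in the sources used here.

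To show what the promoters of these genes hold, 250 bases before each RefSeq start (GRCm38.p6) were searched for the C/EBP-ATF core TGATGNAA and, on the other strand, TTNCATCA. A promoter window matched by symbol for 34 of the 42 genes, and 10 of the 34 (29.4%) held the motif, as did 3.91% of 27025 genes with a window and 3.45% of all 32851 windows. Cth, Slc7a3, Slc7a5, Cars, Wars, Nars, Mars and Lars did not match. Of the genes not printed here, Vldlr, Pycr1 and Slc7a11 held it, the last with overlapping windows around a pair of matches. The sites below are shown because they come from every role but the transporters, and because Chac1, Asns, Gars and Tars recur in the results. Each is printed 5′ to 3′ on the strand of its gene with the match in capitals. The Chac1 site is at chr2:119351039-119351066, 185 bases before the start. The Asns site is at chr6:7693215-7693242, the Atf3 site at chr1:191183426-191183453 and the Nupr1 site at chr7:126625563-126625590. The Gars site is at chr6:55037961-55037988 and the Tars site at chr15:11399659-11399683. For Asns, Atf3 and Nupr1 these bases fall inside, and for Tars partly inside, the gene span of the deposited tables, whose starts differ from RefSeq. A match describes these letters only and no binding was measured.
Chac1: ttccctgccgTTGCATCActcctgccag
Asns: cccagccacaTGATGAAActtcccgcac
Atf3: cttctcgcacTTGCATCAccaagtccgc
Nupr1: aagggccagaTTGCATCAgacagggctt
Gars: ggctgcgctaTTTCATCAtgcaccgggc
Tars: aggagtcccgTTGCATCAgctggtt

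The RNA-seq values are deposited as TPM, a level scaled to transcript length and library size. The median ratio of deposited coverage to FPKM gave relative depths from 0.33 to 1.73 across libraries, the lowest in 24 h replicate 1. TT-SLAM-seq values are fragments scaled to gene length and library size (FPKM) over the whole gene, introns included, scaled to 6481999 to 24266191 reads, with 24 h replicate 3 the shallowest. Trim28 itself stood at 624 ± 2.28 TPM (SD, n = 3) with DMSO, 372 ± 9.18 at 24 h, 1398 in parental and 287 in NPCs (means of 3), which does not measure its degradation. Summed TPM of 8 pluripotency markers was 4438 to 4835 with DMSO, 2970 to 3267 at 24 h, 380 to 443 at 96 h and 420 to 437 in NPCs, where Pou5f1 and Zfp42 were listed at 0. Feeder fibroblast markers summed to 20.9 to 21.7 TPM with DMSO, 28.6 to 30.8 at 24 h, 277 to 300 at 96 h, 102 to 105 in parental and 101 to 121 in the shERV line. Markers of primitive and parietal endoderm summed to 26.9 to 32.7 TPM with DMSO, 34.6 to 35.8 at 24 h and 84.6 to 89.2 at 96 h. Whether the 96 h rise of the feeder list came from feeder cells was not tested. In bulk samples, fewer cells of a type and less RNA per cell cannot be told apart.

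After 2 h of dTAG-13, the comparison on which the genes were chosen, the 42 genes were lower as a group, with a median log2 difference of -0.29 against -0.02 over all 17922 genes. In 39 of the 42 all 3 treated libraries lay below all 3 DMSO libraries, against 19.9% of all genes. By limma 31 of the 42 were lower and 0 higher past an adjusted p of 0.05, against 7.02% and 8.25% of all genes. These values describe the choice and nothing is read from them. Differences are on the scale of log2(TPM + 0.5), which understates the change of low genes.

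The steepest of these was Chac1, which encodes an enzyme that degrades glutathione. Its level was 27.9, 31.1 and 23.6 TPM in the DMSO libraries and 1.42, 1.49 and 1.81 TPM at 2 h, a log2 difference of -3.75. Trib3, a pseudokinase that restrains ATF4, stood at 52.1, 51.8 and 47.1 TPM with DMSO and at 18.7, 20.0 and 17.9 TPM at 2 h, a log2 difference of -1.39. Stc2, a secreted glycoprotein induced by stress, went from 16.5, 16.4 and 15.0 TPM to 6.07, 6.25 and 5.49 TPM, a log2 difference of -1.35. None of these groups overlapped. Atf4 itself stood at 265, 263 and 271 TPM against 188, 191 and 196 TPM, and Asns, which makes asparagine, at 411, 413 and 387 TPM against 356, 336 and 316 TPM. Ddit3, which encodes the proapoptotic factor CHOP, was 9.10, 7.45 and 8.60 TPM with DMSO and 6.69, 7.34 and 7.24 TPM at 2 h, the smallest of these differences at -0.22.

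**Figure D1:**
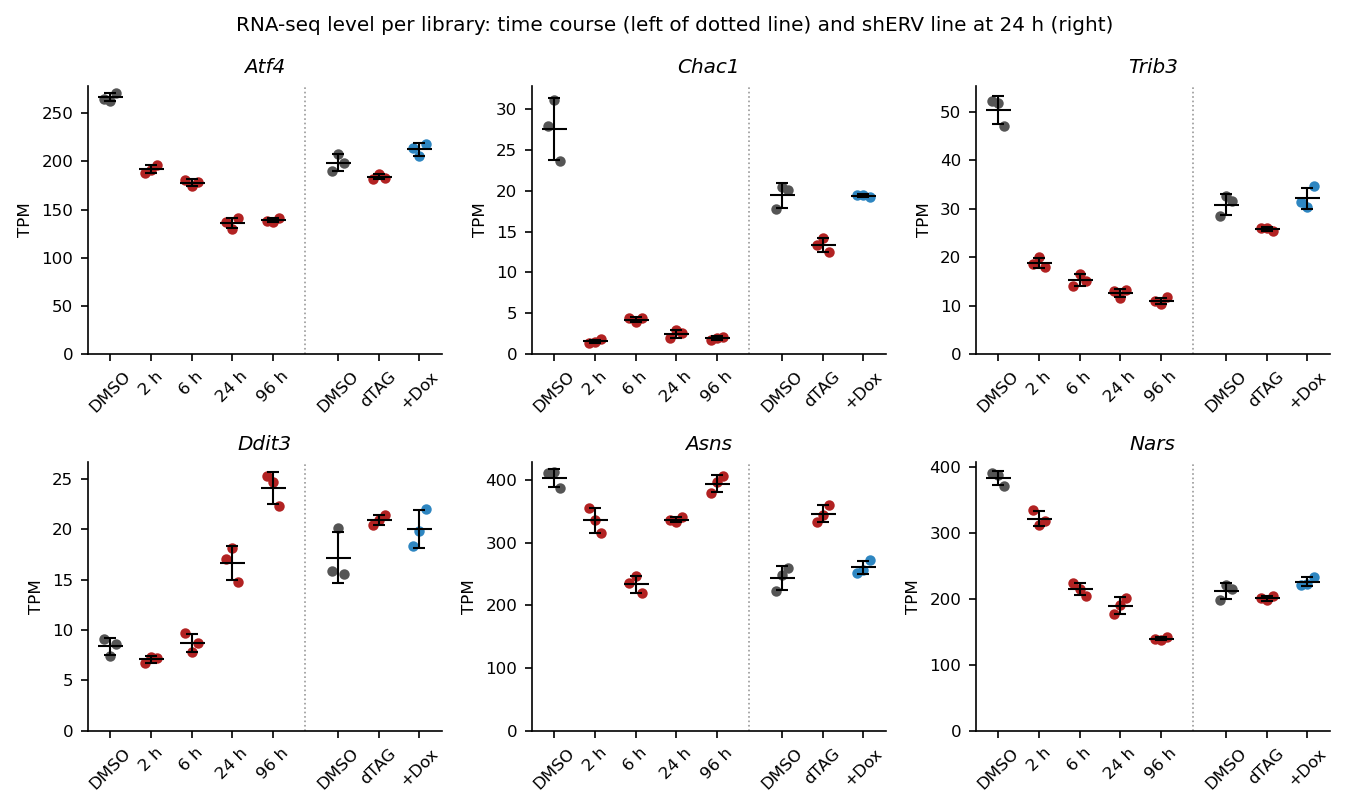
Level in TPM (linear axis from 0) of Atf4, Chac1, Trib3, Ddit3, Asns and Nars in every library of the time course (left of the dotted line) and of the shERV line at 24 h (right), with 1 point per library and the group mean ± SD (n = 3) as bars. In the time course Chac1 lies at 23.6 to 31.1 TPM with DMSO and at 1.42 to 4.39 TPM in every treated library, while in the shERV line with dTAG-13 it lies at 12.5 to 14.2 TPM.

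In the rest of the time course the same DMSO libraries served as control, so the 6 h, 24 h and 96 h comparisons are not independent of the 2 h one. At 6 h, 39 of the 42 genes were lower by limma and 0 higher (0 also at an unadjusted p below 0.05), with a median log2 difference of -0.81 against 0.03 over all genes, where 15.5% of genes were lower and 18.4% higher. At 24 h, 37 were lower and 3 higher, with a median of -0.81 against 0.13, beside 25.0% lower and 42.9% higher of all genes. At 96 h, 32 were lower and 7 higher, with a median of -1.26 against 0.05, beside 37.4% lower and 42.9% higher of all genes. More than 2-fold falls were seen for 14 genes at 6 h, 12 at 24 h and 25 at 96 h, against 0.190%, 2.01% and 12.4% of all genes. Centring each library on its median gene lowered every log2 difference by 0.29 at 24 h and by 0.28 at 96 h, and gave 38 lower with 2 higher and 35 lower with 7 higher.

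**Figure D2:**
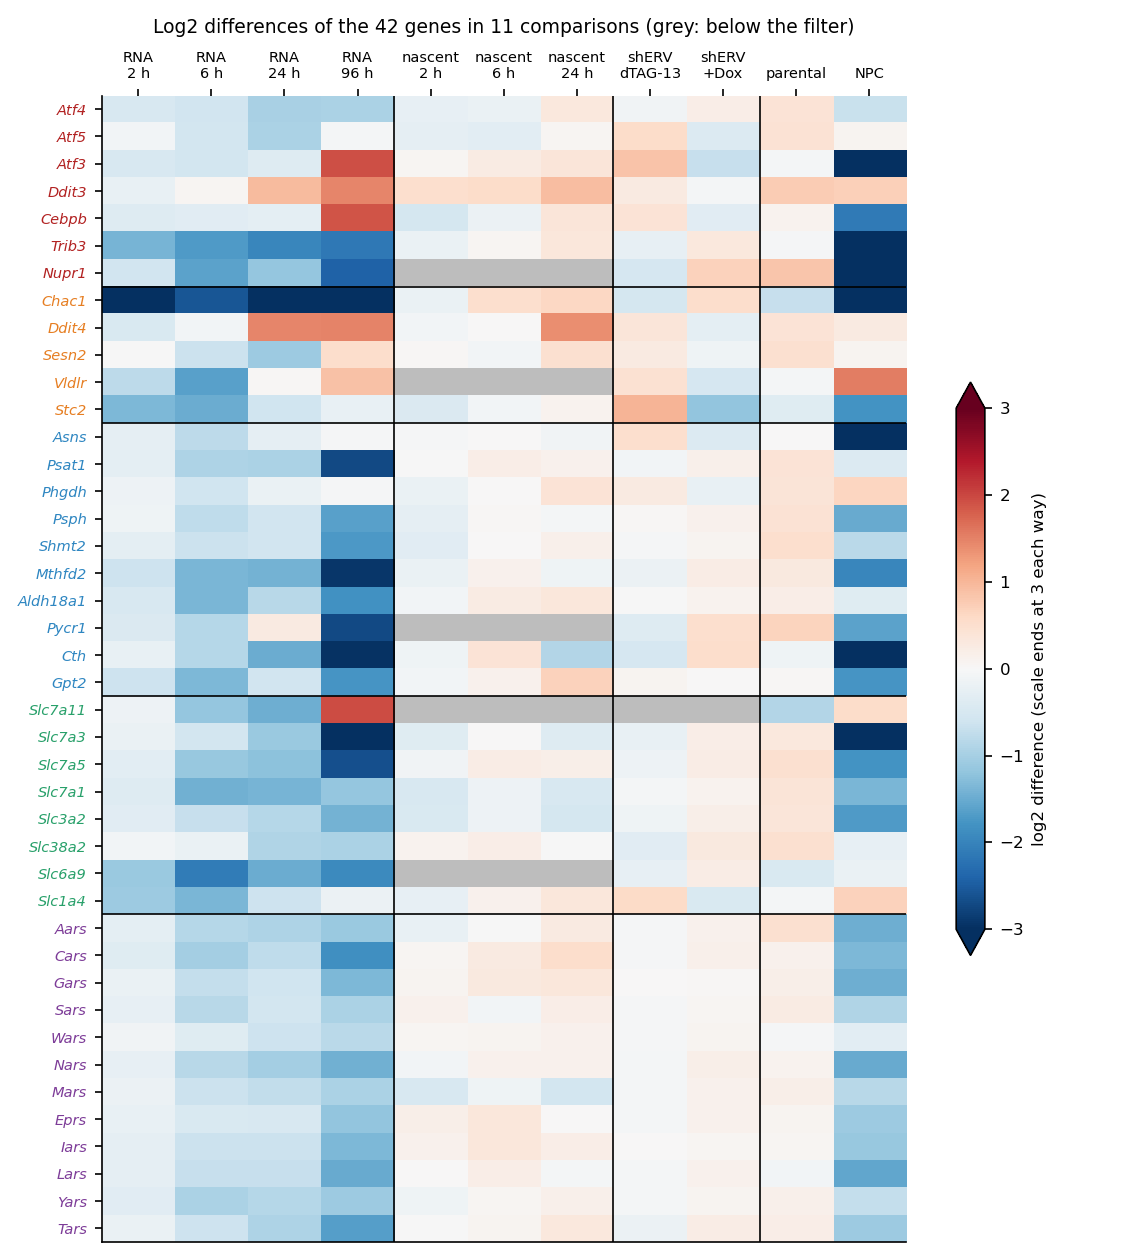
Log2 difference (colour, blue lower and red higher, scale ending at 3 each way) of each of the 42 genes in rows, coloured by role, in 11 comparisons in columns, with grey for genes below the filter. RNA-seq and nascent columns are against DMSO, shERV +Dox is against dTAG-13 alone, and parental and NPC are against DMSO mESCs. The synthetases are blue at every RNA-seq time, with medians of -0.25, -0.71, -0.72 and -1.26, and pale in the nascent and shERV columns. Nascent values are low, and the log scale used understates their changes.

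The tRNA synthetases, which load amino acids onto their tRNAs, moved as a block. All 12 were lower at 6 h, 24 h and 96 h, with median log2 differences of -0.71, -0.72 and -1.26. Nars, the asparaginyl enzyme, stood at 392, 388 and 372 TPM with DMSO, 224, 216 and 205 TPM at 6 h, 177, 191 and 202 TPM at 24 h and 139, 138 and 143 TPM at 96 h. Its log2 difference at 24 h was -1.01 ± 0.0487 (SE, limma adjusted p = 7.20e-10), the steepest of the 12, and Eprs, the bifunctional glutamyl-prolyl enzyme, had the shallowest at -0.47 ± 0.0431. At 6 h the range ran from Cars, the cysteinyl enzyme, at -1.01 ± 0.0542 (adjusted p = 5.02e-08) to Wars, the tryptophanyl enzyme, at -0.36 ± 0.0502 (adjusted p = 0.000181). By 96 h Cars stood at 41.3, 42.6 and 39.2 TPM against 147 in each DMSO library. Every treated library of Nars, and of Cars at 96 h, was below every DMSO library.

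The transcription factors and feedback regulators parted over time. Atf4 was 181, 174 and 179 TPM at 6 h, 137, 130 and 141 TPM at 24 h and 138, 137 and 141 TPM at 96 h, with log2 differences of -0.58 ± 0.033 (adjusted p = 9.97e-08), -0.97 ± 0.033 (adjusted p = 4.02e-11) and -0.94 ± 0.033 (adjusted p = 2.58e-12). Trib3 stood at 14.1, 16.6 and 15.1 TPM, then 13, 11.6 and 13.3 TPM, then 10.9, 10.3 and 11.7 TPM at these times, and its log2 difference at 24 h was -1.95 ± 0.0737 (adjusted p = 1.01e-10). For both genes every treated library was below every DMSO library at each time. Ddit3 went the other way, at 9.66, 7.86 and 8.69 TPM at 6 h, 17.1, 18.1 and 14.8 TPM at 24 h and 25.3, 24.7 and 22.3 TPM at 96 h. Its groups overlapped with DMSO at 6 h (log2 difference 0.06 ± 0.0934, adjusted p = 0.690), and it rose at 24 h by 0.95 ± 0.0934 (adjusted p = 6.54e-07) and at 96 h by 1.47 ± 0.0934 (adjusted p = 1.89e-09). Ddit3 is listed in 2 records that overlap each other, and it overlaps Mars on the opposite strand.

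Atf3 and Cebpb, which encode stress-induced transcription factors, were above DMSO at 96 h. Atf3 was 11.3, 11.0 and 12.6 TPM with DMSO, 8.39, 8.13 and 9.72 TPM at 24 h and 46.7, 46.6 and 43.2 TPM at 96 h, a log2 difference of 1.93 ± 0.0944 at 96 h (adjusted p = 9.74e-11). Cebpb was 13.6, 15.0 and 12.4 TPM with DMSO and 55.9, 57.9 and 42.3 TPM at 96 h, a log2 difference of 1.88 ± 0.181 (adjusted p = 2.11e-07). Nupr1, a small stress-induced chromatin protein, ran from 36.9, 35.6 and 36.1 TPM with DMSO down to 13.4, 11.9 and 9.89 TPM at 6 h and 6.03, 7.74 and 5.45 TPM at 96 h. Its groups did not overlap, and the 6 h difference was -1.60 ± 0.120 (adjusted p = 1.61e-06).

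Among the stress effectors, Chac1 did not return to its DMSO level. It stood at 4.39, 3.89 and 4.39 TPM at 6 h, 2.01, 2.95 and 2.61 TPM at 24 h and 1.69, 2.00 and 2.14 TPM at 96 h. Its log2 differences were -2.56 ± 0.132 (adjusted p = 3.87e-08), -3.22 ± 0.132 (adjusted p = 2.01e-10) and -3.52 ± 0.132 (adjusted p = 5.17e-12). Ddit4, which inhibits mTORC1, was 69.6, 71.8 and 64.9 TPM with DMSO and 201, 199 and 176 TPM at 24 h, a rise of 1.47 ± 0.0664 (adjusted p = 4.18e-10). Sesn2, another mTORC1 inhibitor that senses leucine, was 96.5, 93.9 and 94.8 TPM with DMSO, 45.1, 41.0 and 46.7 TPM at 24 h and 138, 139 and 135 TPM at 96 h, so it was below DMSO at 24 h and above it at 96 h without overlap. Stc2 was partly back at 24 h, with 10.2, 10.3 and 10.8 TPM and a log2 difference of -0.59 ± 0.0689 (adjusted p = 3.79e-06). Vldlr, a lipoprotein receptor, was 5.45, 4.82 and 4.42 TPM with DMSO, 1.77, 1.14 and 0.897 TPM at 6 h and 4.11, 5.99 and 5.16 TPM at 24 h, where its groups overlapped.

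The 10 enzymes of amino acid and one-carbon synthesis were all lower at 6 h, with a median log2 difference of -0.85. At 24 h 9 were lower and 1 higher, and at 96 h 8 were lower, with a median of -1.80. Asns dipped and came back, at 235, 247 and 220 TPM at 6 h, 336, 333 and 341 TPM at 24 h and 380, 397 and 406 TPM at 96 h. Its log2 differences were -0.79 ± 0.0492 (adjusted p = 2.45e-07), -0.26 ± 0.0492 (adjusted p = 0.000293) and -0.04 ± 0.0492 (adjusted p = 0.520), and only at 96 h did the libraries overlap with DMSO, where centring gave -0.31 (adjusted p = 4.37e-05). Cth, which makes cysteine from cystathionine, kept declining, from 161, 159 and 150 TPM with DMSO to 80.4, 93.3 and 86.2 TPM at 6 h, 52.3, 55.0 and 59.4 TPM at 24 h and 18.1, 18.8 and 22.3 TPM at 96 h. The 24 h and 96 h differences of Cth were -1.49 ± 0.0733 (adjusted p = 8.95e-10) and -2.96 ± 0.0733 (adjusted p = 6.92e-14). Pycr1, the last step of proline synthesis, was 30.3, 31.2 and 26.9 TPM with DMSO and 33.7, 35.4 and 36.9 TPM at 24 h without overlap, a rise of 0.26 ± 0.0894 (adjusted p = 0.0197) that became -0.03 (adjusted p = 0.771) after centring. Mthfd2, the mitochondrial folate enzyme, Psat1 of serine synthesis and Pycr1 had 96 h differences of -2.92, -2.71 and -2.71.

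All 8 transporters were lower at 6 h and at 24 h, with median log2 differences of -1.15 and -1.17, and at 96 h 7 were lower and 1 higher. Slc6a9, a glycine transporter, was 10.9, 9.63 and 10.8 TPM with DMSO and 1.71, 2.27 and 2.28 TPM at 6 h, a difference of -2.09 ± 0.162 (adjusted p = 2.15e-06). Slc7a3, a cationic amino acid transporter typical of stem cells, stood at 154, 152 and 161 TPM with DMSO and 16.4, 18.8 and 19.3 TPM at 96 h, a difference of -3.07 ± 0.104 (adjusted p = 1.85e-12). The exception was Slc7a11, the cystine importer, with 1.18, 1.07 and 1.11 TPM with DMSO, 0.0217, 0.140 and 0.0933 TPM at 24 h and 6.12, 5.77 and 5.41 TPM at 96 h. Its log2 difference was -1.47 ± 0.109 at 24 h (adjusted p = 3.94e-08) and 1.95 ± 0.109 at 96 h (adjusted p = 4.37e-10), without overlap at either time. The 96 h changes coincided with the marker shifts given above, and the part of those shifts in them was not tested.

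Contrasts between treated groups use no DMSO library, though the 2 h libraries were part of the comparison behind the choice. From 2 h to 6 h, 35 of the 42 genes were lower and 3 higher (12.9% and 16.2% of all genes), with a median of -0.47. The 3 that rose were Chac1 by 1.19 ± 0.132 (adjusted p = 4.83e-05), Ddit4 by 0.38 ± 0.0664 (adjusted p = 0.00110) from 49.4, 51.1 and 49.2 to 68.7, 69.0 and 58.1 TPM, and Ddit3 by 0.28 ± 0.0934 (adjusted p = 0.0381, and 0.132 after centring). Chac1 was thus higher at 6 h than at 2 h in every library, though still far below DMSO. The lowest differences here belonged to Slc7a1, the main arginine transporter, at -1.07 ± 0.0547 (adjusted p = 1.48e-07), with 32.3, 32.8 and 31.6 TPM at 2 h against 14.5, 16.1 and 14.8 TPM at 6 h, to Nupr1 at -1.03 ± 0.120 (adjusted p = 6.89e-05) and to Slc7a11 at -1.01 ± 0.109 (adjusted p = 3.98e-05).

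From 2 h to 24 h, 29 genes were lower and 7 higher (25.1% and 42.7% of all genes), with a median of -0.43. Ddit4 rose by 1.93 ± 0.0664 (adjusted p = 4.51e-11), Ddit3 by 1.17 ± 0.0934 (adjusted p = 7.33e-08) and Vldlr by 0.83 ± 0.170 (adjusted p = 0.000611). Slc7a11 at -1.33 ± 0.109 (adjusted p = 1.03e-07), Cth at -1.27 ± 0.0733 (adjusted p = 3.23e-09) and Sesn2 at -1.09 ± 0.0541 (adjusted p = 8.48e-10) had the lowest differences. Asns differed by 0.00 ± 0.0492 (adjusted p = 0.964), and by -0.28 after centring (adjusted p = 0.000187).

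Nascent RNA was measured against its own DMSO libraries, and 37 of the 42 genes passed its filter on low values. Nupr1, Vldlr, Pycr1, Slc7a11 and Slc6a9 did not. Differences are on the scale of log2(FPKM + 0.5), and many of the 37 genes have values not far from 0.5. Their nascent changes are thus understated more than those in TPM, and sizes are not compared between the assays. At 2 h, 3 genes were lower by limma and 0 higher (1 higher at an unadjusted p below 0.05, and 2 higher by limma-voom on read numbers), with a median log2 difference of -0.10 against -0.05 over 13357 genes, beside 1.97% lower and 1.58% higher of all genes. The 3 were Slc7a1, Slc3a2 and Stc2. Slc7a1 was 1.13, 1.22 and 0.873 FPKM with DMSO and 0.665, 0.655 and 0.576 FPKM at 2 h, a log2 difference of -0.47 ± 0.0895 (adjusted p = 0.0266). Slc3a2, the shared heavy chain of several amino acid exchangers, was 8.43, 8.61 and 6.96 FPKM and then 5.78, 5.84 and 5.49 FPKM, a difference of -0.45 ± 0.0942 (adjusted p = 0.0360, and 0.0574 with a replicate block). Stc2 was 0.644, 0.796 and 0.769 FPKM and then 0.380, 0.441 and 0.411 FPKM, a difference of -0.44 ± 0.0847 (adjusted p = 0.0272, and 0.0569 after centring). None of the 3 overlapped, but the count of lower genes was 0 without 2 h replicate 1, 2 h replicate 2 or DMSO replicate 2 and 1 without DMSO replicate 1.

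Chac1, Atf4, Trib3, Asns and Ddit3 were not called in nascent RNA at 2 h. Chac1 stood at 0.522, 0.403 and 0.306 FPKM with DMSO and 0.273, 0.290 and 0.315 FPKM at 2 h, from 12, 16 and 11 reads and 14, 13 and 14 reads, so the libraries overlapped (log2 difference -0.19 ± 0.124, adjusted p = 0.410). Such read numbers limit what this assay can show for Chac1, and no loss was called in it at 2 h. Atf4, with 871 to 1656 reads per DMSO library, was 50.7, 55.8 and 54.1 FPKM with DMSO and 43.0, 45.4 and 47.2 FPKM at 2 h, below in every library with a difference of -0.24 ± 0.133 (adjusted p = 0.333). Trib3 was 0.871, 0.444 and 0.902 FPKM and then 0.538, 0.618 and 0.526 FPKM, which overlapped (adjusted p = 0.421). Asns was 4.39, 4.45 and 3.85 FPKM and then 4.07, 5.00 and 3.38 FPKM, which also overlapped (adjusted p = 0.897). Ddit3 was higher in every library, at 0.920, 1.35 and 1.02 FPKM and then 1.66, 1.58 and 2.02 FPKM, with a difference of 0.50 ± 0.147 (adjusted p = 0.0899).

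**Figure D3:**
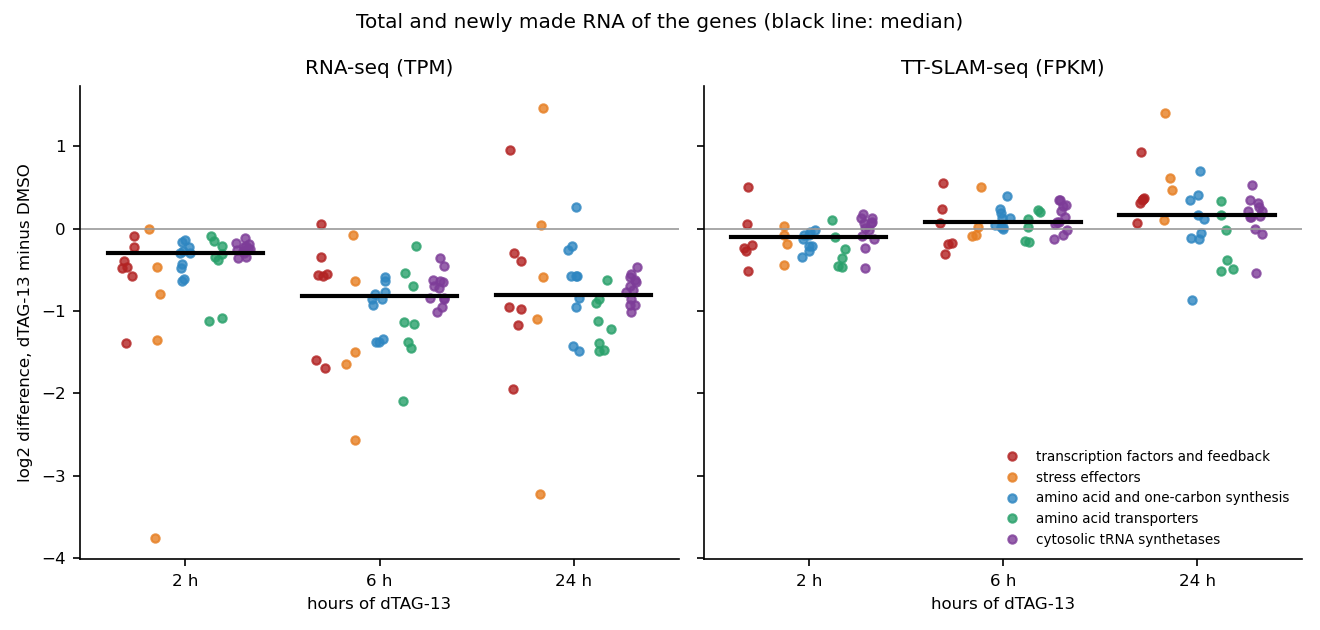
Log2 difference from DMSO (vertical) at each duration of dTAG-13 (horizontal, with points spread sideways by role) in RNA-seq (left, 42 genes) and TT-SLAM-seq (right, 37 genes), with 1 point per gene, coloured by role, and a black line at the median. The RNA-seq medians are -0.29, -0.81 and -0.81 and those of TT-SLAM-seq -0.10, 0.08 and 0.17; the top point at 24 h is Ddit4 in both.

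At 6 h, 6 genes were higher in nascent RNA and 0 lower (1 lower at an unadjusted p below 0.05, and 2 lower by limma-voom), with a median of 0.08 against 0.06 and beside 7.82% higher and 1.27% lower of all genes. They were Ddit3, Chac1, Cth, Aldh18a1, Cars and Iars, of which the last 3 were not called with a replicate block (adjusted p = 0.0683, 0.0814 and 0.0820). Chac1 stood at 0.822, 0.816 and 0.746 FPKM at 6 h, from 42, 47 and 39 reads, a rise of 0.51 ± 0.124 (adjusted p = 0.0348). Ddit3 at 1.72, 1.61 and 2.20 FPKM rose by 0.55 ± 0.147 (adjusted p = 0.0465). Cth at 2.73, 2.68 and 2.66 FPKM, against 2.03, 1.99 and 1.77 FPKM with DMSO, rose by 0.40 ± 0.0882 (adjusted p = 0.0268). These groups did not overlap, yet the 6 adjusted p ran from 0.0268 to 0.0465. Leaving out any 1 library of either group left 0 to 2 calls, with 1 without 6 h replicate 2, 2 without DMSO replicate 3 and 0 without any other, and centring left 1 higher and 1 lower. Atf4 at 44.1, 42.4 and 55.0 FPKM (adjusted p = 0.404), Trib3 at 0.747, 0.729 and 0.857 FPKM (adjusted p = 0.802) and Asns at 4.25, 4.16 and 4.42 FPKM (adjusted p = 0.951) overlapped with DMSO.

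At 24 h, 12 genes were higher and 4 lower in nascent RNA, with a median of 0.17 against 0.21 over all genes and beside 32.3% higher and 5.59% lower of all genes. Centring subtracted 0.24 from every difference and gave 5 higher and 10 lower, and limma-voom on read numbers gave 7 higher and 12 lower of 42, so the balance of directions depended on the scaling. Ddit4 was 4.69, 5.72 and 5.47 FPKM with DMSO and 15.3, 13.2 and 15.9 FPKM at 24 h, a rise of 1.40 ± 0.114 (adjusted p = 4.09e-05). Ddit3 at 2.17, 2.38 and 3.08 FPKM rose by 0.93 ± 0.147 (adjusted p = 0.00100). Gpt2, the mitochondrial alanine transaminase, went from 0.866, 0.776 and 0.724 FPKM to 1.68, 1.62 and 1.46 FPKM, a rise of 0.70 ± 0.0675 (adjusted p = 8.62e-05). Their groups did not overlap, nor did those of Chac1, which stood at 1.18, 0.850 and 0.685 FPKM, from 90, 55 and 14 reads, a rise of 0.62 ± 0.124 (adjusted p = 0.00357). After centring the Chac1 difference was 0.37 (adjusted p = 0.0638) and was not called.

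The 4 lower genes at 24 h were Cth, Mars, Slc3a2 and Slc7a1. Cth fell to 0.775, 0.752 and 0.976 FPKM, by 0.87 ± 0.0882 on the log2 scale (adjusted p = 0.000110). Mars, the methionyl enzyme, which shares an overlap with Ddit3, was 1.14, 0.857 and 1.21 FPKM with DMSO and 0.543, 0.754 and 0.436 FPKM at 24 h, a difference of -0.54 ± 0.144 (adjusted p = 0.0141). Slc3a2 stood at 5.44, 5.64 and 5.15 FPKM, a difference of -0.52 ± 0.0942 (adjusted p = 0.00204). No library overlapped for these genes. Of the 12 synthetases, 3 were higher (Aars, Cars and Gars) and 1 lower (Mars), with a median of 0.18. After centring 1 was higher (Cars) and 3 lower (Mars, Eprs and Lars), with a median of -0.06. Atf4 at 59.4, 64.5 and 75.9 FPKM was above DMSO in every library with a difference of 0.31 ± 0.133 (adjusted p = 0.0971), Trib3 stood at 0.973, 1.11 and 1.10 FPKM (0.35 ± 0.134, adjusted p = 0.0631) and Asns at 3.71, 4.00 and 3.93 FPKM (-0.11 ± 0.116, adjusted p = 0.501). Asns was lower after centring, at -0.35 (adjusted p = 0.0224).

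The shERV line addressed the 24 h question with controls of its own, and the balance of directions there depended on the scaling. Of 41 genes tested, Slc7a11 being under the filter, 11 were higher and 10 lower, with a median log2 difference of -0.04 against 0.14 over 16166 genes, beside 41.2% higher and 12.8% lower of all genes. Centring subtracted 0.16 and gave 8 higher and 28 lower, and without DMSO replicate 1 of this line 19 were lower. Chac1 was 17.7, 20.5 and 20.1 TPM with DMSO and 13.3, 14.2 and 12.5 TPM with dTAG-13, a difference of -0.52 ± 0.0663 (adjusted p = 4.44e-05). Cth was 71.1, 78.9 and 77.8 TPM and then 51.3, 55.5 and 53.6 TPM, a difference of -0.50 ± 0.0513 (adjusted p = 8.93e-06). Nupr1 was 16.5, 17.0 and 18.9 TPM and then 11.6, 11.6 and 13.6 TPM, a difference of -0.50 ± 0.0799 (adjusted p = 0.000265). All 3 fell without overlap.

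Stc2, Atf3 and Slc1a4, a neutral amino acid exchanger, rose most in the shERV line. Stc2 was 7.09, 7.88 and 7.47 TPM with DMSO and 16.6, 15.1 and 15.5 TPM with dTAG-13, a rise of 1.02 ± 0.0641 (adjusted p = 2.14e-07). Atf3 was 12.3, 14.5 and 14.2 TPM and then 26.5, 24.3 and 24.4 TPM, a rise of 0.86 ± 0.0713 (adjusted p = 1.92e-06). Slc1a4 was 11.4, 12.4 and 13.2 TPM and then 18.1, 18.8 and 18.8 TPM, a rise of 0.57 ± 0.0647 (adjusted p = 1.91e-05). Their groups did not overlap. Asns also rose, from 223, 248 and 260 TPM to 333, 345 and 360 TPM (0.51 ± 0.0579, adjusted p = 2.07e-05). Ddit3 rose from 15.9, 20.1 and 15.6 TPM to 20.4, 20.9 and 21.4 TPM (0.28 ± 0.0926, adjusted p = 0.0233), without overlap, a call that centring ended (adjusted p = 0.262).

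Trib3 fell from 28.4, 32.6 and 31.5 TPM to 26.1, 26.0 and 25.4 TPM (-0.25 ± 0.0627, adjusted p = 0.00570), again without overlap. Atf4 was 190, 208 and 198 TPM and then 182, 187 and 183 TPM, lower in every library with a difference of -0.11 ± 0.0436 (adjusted p = 0.0540) that was -0.27 after centring (adjusted p = 5.18e-05). Of the 12 synthetases 1 was lower, Tars at -0.18 ± 0.0462 (adjusted p = 0.00551), and their median was -0.04. After centring all 12 were lower, from -0.15 to -0.35.

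The difference between both 24 h effects was fitted as an interaction, over 17653 genes. The time-course effect in it uses the DMSO libraries against which the genes were known to be lower at 2 h, so the choice of genes favours a positive difference, and the counts below describe the genes without being independent of that choice. For 38 of the 42 genes the 24 h effect was higher in the shERV line than in the time course and for 3 it was lower, against 26.2% and 25.2% of all genes, with a median difference of 0.76 against 0.00. All 12 synthetases and all 8 transporters were among the 38. Chac1 had the largest gap at 2.69 (adjusted p = 5.96e-07), followed by Trib3 at 1.71 (adjusted p = 3.33e-07). Ddit4 at -1.11, Ddit3 at -0.67 and Pycr1 at -0.64 were the 3 with the lower effect in the shERV line, and for Vldlr no difference passed the threshold. Centring also gave counts of 38 and 3. The summed pluripotency markers fell in both lines, from 2319 to 2679 TPM with DMSO to 1152 to 1187 TPM with dTAG-13 in the shERV line. The controls differed too, since Chac1 was 17.7 to 20.5 TPM in the shERV line with DMSO and 23.6 to 31.1 TPM in the time course, values from different library kits.

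**Figure D4:**
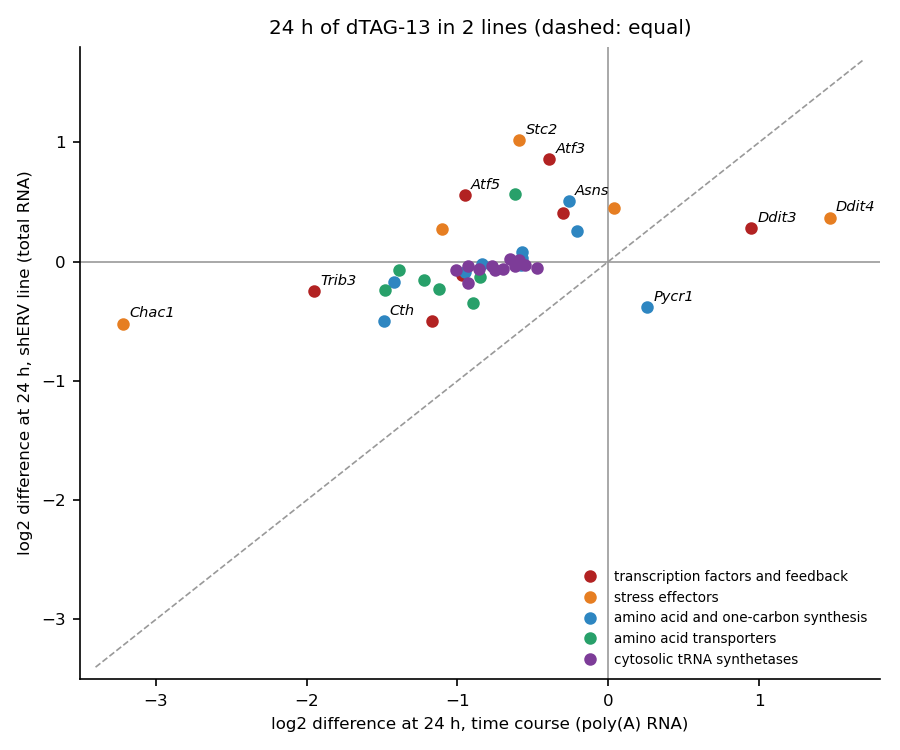
Log2 difference after 24 h of dTAG-13 in the shERV line (vertical) against that in the time course (horizontal) for the 41 genes tested in both, with 1 point per gene, coloured by role, and a dashed line at equality. Of the labelled genes Ddit3, Ddit4 and Pycr1 lie below that line, and the synthetases cluster near 0 vertically and between -0.47 and -1.01 horizontally.

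With Dox added to dTAG-13 in the shERV line 18 of the 41 genes were higher and 10 lower, with a median log2 difference of 0.12 against -0.04, beside 17.5% higher and 29.3% lower of all genes. By the titles no group had Dox without dTAG-13, and no line without hairpins had Dox. Effects of Dox itself and of the hairpins thus cannot be told apart. These libraries share the dTAG-13 group with the comparison above, so an opposite sign is partly built in, and the levels are therefore set beside DMSO. Chac1 with Dox was 19.5, 19.5 and 19.2 TPM, within the DMSO range, a rise of 0.53 ± 0.0663 over dTAG-13 alone (adjusted p = 5.96e-05). Cth was 75.0, 79.9 and 77.1 TPM (0.53 ± 0.0513, adjusted p = 7.81e-06), and Nupr1 was 20.3, 18.7 and 21.7 TPM (0.70 ± 0.0799, adjusted p = 2.70e-05), both without overlap with dTAG-13 alone. Stc2 was 6.66, 6.54 and 6.57 TPM (-1.19 ± 0.0641, adjusted p = 7.93e-08), below every DMSO library. Atf3 was 16.3, 15.1 and 14.6 TPM (-0.69 ± 0.0713, adjusted p = 1.25e-05), above every DMSO library, and Vldlr was 2.95, 3.03 and 3.99 TPM against 4.25, 5.08 and 5.35 TPM without Dox (-0.50 ± 0.154, adjusted p = 0.0184).

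With Dox, Atf4 was 214, 205 and 218 TPM (0.20 ± 0.0436, adjusted p = 0.00260), Trib3 31.4, 30.4 and 34.6 TPM (0.31 ± 0.0627, adjusted p = 0.00186) and Asns 252, 257 and 273 TPM (-0.41 ± 0.0579, adjusted p = 0.000142), all 3 overlapping with the DMSO range. Ddit3 at 18.3, 19.8 and 22.0 TPM overlapped with dTAG-13 alone (adjusted p = 0.632). Without Dox replicate 3 the count of higher genes was 11, and centring, which added 0.07, gave 28 higher and 9 lower. The summed pluripotency markers were 2556 to 2606 TPM with Dox, beside 1152 to 1187 TPM without it, and their part in the result was not tested.

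In untreated parental mESCs, compared with the time-course DMSO libraries of the degron line, 28 of the 42 genes were higher and 5 lower, with a median log2 difference of 0.19 against -0.09, beside 25.0% higher and 41.0% lower of all genes. Centring added 0.19 and gave 34 higher and 3 lower. Atf4 was 360, 349 and 350 TPM in parental cells, a difference of 0.41 ± 0.0220 (adjusted p = 3.03e-07). Nupr1 was 62.2, 65.7 and 65.9 TPM (0.83 ± 0.133, adjusted p = 0.000458), Ddit3 14.2, 15.2 and 14.6 TPM (0.77 ± 0.0784, adjusted p = 2.09e-05) and Pycr1 47.0, 48.3 and 45.4 TPM (0.66 ± 0.0787, adjusted p = 6.04e-05), all without overlap. Slc7a11 at 0.266, 0.394 and 0.497 TPM (-0.88 ± 0.107, adjusted p = 7.14e-05), Chac1 at 16.0, 16.6 and 17.5 TPM (-0.70 ± 0.100, adjusted p = 0.000210) and Slc6a9 at 7.60, 7.16 and 7.67 TPM (-0.45 ± 0.0677, adjusted p = 0.000271) were lower without overlap. Trib3 at 49.7, 48.7 and 48.9 TPM (adjusted p = 0.728) and Asns at 418, 405 and 404 TPM (adjusted p = 0.652) overlapped with the degron line, though Asns was 0.21 higher after centring (adjusted p = 0.000932). Feeder markers were higher in the parental libraries, as given above, and their part in these differences was not tested.

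In NPCs, compared with the same DMSO libraries on which the genes were chosen, so that a fall is favoured, 34 of the 42 genes were lower than in mESCs and 7 higher, with a median of -1.25 against 0.15, beside 39.5% lower and 49.5% higher of all genes, and centring, which subtracted 0.40, gave 37 lower and 4 higher. All 12 synthetases were lower, with a median of -1.12. Slc7a3 was 0.875, 1.02 and 1.31 TPM (-6.65 ± 0.0826, adjusted p = 2.56e-12), Trib3 0.745, 1.04 and 1.03 TPM (-5.15 ± 0.0818, adjusted p = 1.08e-11) and Nupr1 0, 0.178 and 0.278 TPM (-5.84 ± 0.133, adjusted p = 1.01e-10). Asns was 38.9, 41.0 and 38.3 TPM (-3.34 ± 0.0344, adjusted p = 8.57e-13), Chac1 1.77, 1.44 and 1.58 TPM (-3.74 ± 0.100, adjusted p = 3.02e-10) and Atf4 170, 166 and 167 TPM (-0.67 ± 0.0220, adjusted p = 1.32e-09). Every one of these NPC libraries was below every mESC DMSO library. Vldlr at 15.1, 15.9 and 14.4 TPM (1.54 ± 0.104, adjusted p = 3.06e-07), Ddit3 at 14.8, 14.4 and 12.9 TPM (0.71 ± 0.0784, adjusted p = 1.36e-05) and Slc1a4 at 37.5, 34.0 and 33.9 TPM (0.70 ± 0.0462, adjusted p = 2.55e-07) were higher without overlap. Cell type and medium differ together here and cannot be told apart.

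Related genes outside the 42 were listed by pathway. In RNA-seq 15.5% of all genes were lower and 18.4% higher at 6 h, and 25.0% and 42.9% at 24 h. At 96 h these shares were 37.4% and 42.9%. They stand beside the time-course RNA-seq counts of every list here and below, and counts near them show nothing particular of a list. Of 11 other cytosolic synthetases and scaffold proteins, 8 were lower at 6 h, 9 at 24 h and 10 at 96 h, with medians of -0.18, -0.48 and -0.46. The 12 above were picked with their fall known, so the medians of the lists are not compared. Of 17 mitochondrial synthetases, which supply the organelle's own translation, the 6 h comparison called 3 higher and 4 lower, the 24 h comparison 2 higher and 4 lower (1 and 13 after centring) and the 96 h comparison 1 higher and 11 lower. Of 14 eIF2 kinases and regulators, the 6 h comparison called 2 higher and 5 lower, and the 24 h comparison 3 higher and 10 lower. In nascent RNA at 24 h the eIF2 list had 3 higher and 2 lower of 13 (2 and 4 after centring), beside 32.3% and 5.59% of all genes, with Ppp1r15a, the phosphatase subunit that reverses eIF2 phosphorylation, at 1.29 ± 0.114 (adjusted p = 6.02e-05).

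Of 17 other reported ATF4 targets tested, the 6 h comparison called 1 higher and 14 lower, the 24 h comparison 5 higher and 9 lower, and the 96 h comparison 3 higher and 12 lower. At 24 h Hmox1, which degrades haem, stood at 55.6, 56.3 and 54.9 TPM against 140, 146 and 146 TPM with DMSO (-1.36 ± 0.0324, adjusted p = 3.09e-12), and Gadd45a, a growth arrest gene, at 44.7, 41.0 and 43.5 TPM against 108, 112 and 111 TPM (-1.35 ± 0.0426, adjusted p = 1.89e-11). At 96 h Bcat1, a branched-chain transaminase, was at -2.22 and Gdf15, a stress cytokine, at -2.02, while Jdp2 and Gadd45b were at 2.12 and 2.02. In the shERV line this list had 3 higher and 5 lower with dTAG-13, beside 41.2% higher and 12.8% lower of all genes.

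The unfolded protein response of the endoplasmic reticulum, a stress arm that shares PERK with the ATF4 pathway, had other counts. Of its 16 genes the 6 h comparison called 10 higher, the 24 h comparison 3 higher and 8 lower (1 and 13 after centring) and the 96 h comparison 13 higher and 1 lower. In nascent RNA the calls at 2 h were Hspa5, the main chaperone of the organelle, Hsp90b1, Dnajb11, Pdia3, Pdia4, Pdia6 and Xbp1, all higher, beside 1.58% of all genes. At 6 h the same genes with Dnajc3 and Calr were called higher, beside 7.82% of all genes. At 24 h 11 of the list were higher (7 after centring), beside 32.3% of all genes, with Hspa5 at 1.08 ± 0.139 (adjusted p = 0.000347) and Hsp90b1 at 1.02 ± 0.121 (adjusted p = 0.000241). In the shERV line 13 were higher with dTAG-13, and 12 were lower on adding Dox, beside 41.2% and 29.3% of all genes. The immediate early genes, which respond within minutes to medium and serum, had 6 called higher and 2 lower of 11 at 6 h, against 3 and 5 in the 24 h comparison, with Fos at 2.06 ± 0.0901 at 24 h (adjusted p = 3.38e-10) in steady-state RNA and 2.42 ± 0.238 (adjusted p = 9.37e-05) in nascent RNA. Nascent calls at 2 h were all higher: Junb at 1.19 ± 0.188 (adjusted p = 0.0148), Nr4a1 at 0.53 ± 0.0981 (adjusted p = 0.0236) and Egr1 at 1.94 ± 0.447 (adjusted p = 0.0481, and 0.0774 with a replicate block). Their behaviour beside the 42 genes is given as counts, and any part of medium age was not tested.

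ChIP-seq peaks were deposited for DMSO and 24 h of dTAG-13, called in each library separately, and a gene was counted when a peak lay within 1 kb of its start. For the acetylation mark H3K27ac, 37, 38 and 40 of the 42 genes had one in the DMSO libraries and 26, 37 and 26 at 24 h, beside 69.9%, 70.4% and 68.0% and then 47.0%, 71.7% and 48.2% of 15702 expressed genes. The libraries with 26 were those with fewest peaks, 30259 and 45662 against 117348. For RNA polymerase II (RNAPII), 37 and 36 genes had a peak with DMSO and 25 and 22 at 24 h, beside 58.8% and 59.1% and then 33.7% and 30.9% of expressed genes. For MED23, a Mediator subunit, the numbers were 40 and 39 and then 22 and 18, beside 77.1% in both DMSO libraries and then 26.5% and 23.9%. The heterochromatin mark H3K9me3 lay near 1 of the 42 starts in 1 DMSO library and near 0 in every other library, beside 4.66%, 4.24% and 3.59% and then 0.388%, 2.50% and 1.98% of expressed genes.

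A peak present in every DMSO library and in no 24 h library was seen at 11 of the 42 genes for RNAPII (26.2%, against 22.2% of expressed genes), at 16 for MED23 (38.1% against 47.6%) and at 1 for H3K27ac (Slc7a11, 2.38% against 0.656%). Shares of the same order as for all expressed genes say nothing particular of these genes. The 11 with RNAPII were Asns, Cars, Cebpb, Chac1, Iars, Pycr1, Shmt2, Slc6a9, Slc7a1, Tars and Yars. At Asns the RNAPII peak had a fold enrichment of 16.7 and 14.8 with DMSO and was absent at 24 h, while H3K27ac peaks were present in all 6 libraries at 2.82 to 6.53. At Chac1 it was 8.75 and 9.51 with DMSO and absent at 24 h. Atf4 kept its RNAPII peak, at 45.4 and 44.9 with DMSO and 20.8 and 17.8 at 24 h. The total of RNAPII peaks fell from 19853 and 19194 to 8182 and 7689 and that of MED23 peaks from 63045 and 58925 to 15335 and 14551, so a lost peak and a library with fewer called peaks cannot be told apart here.

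**Figure D5:**
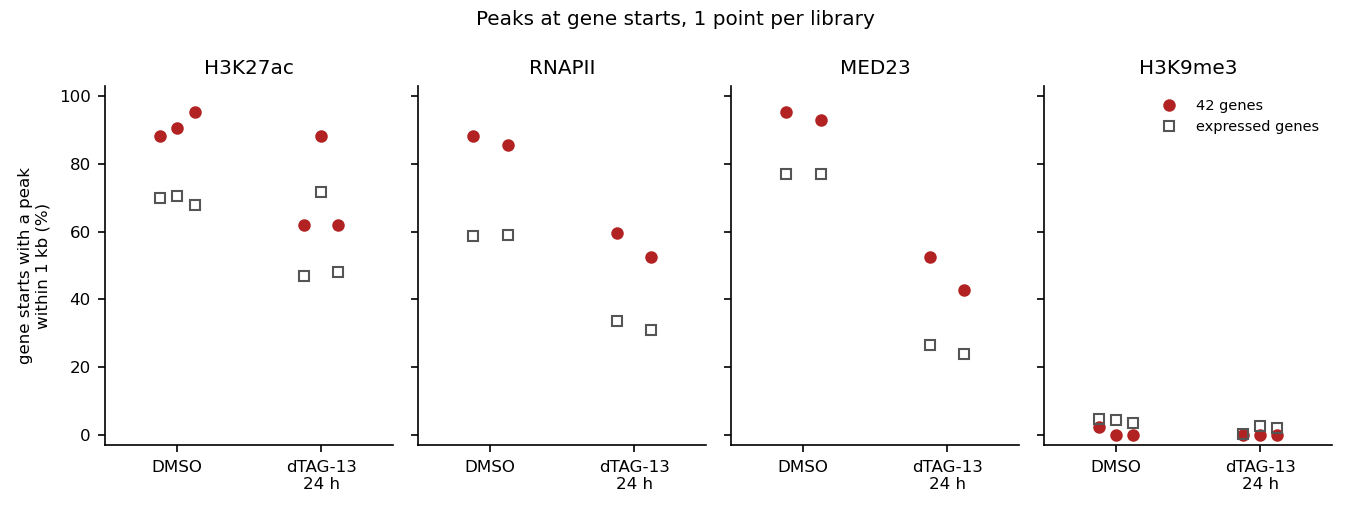
Share (percent) of the 42 genes and of 15702 expressed genes with a peak within 1 kb of the gene start, one point per ChIP-seq library, for H3K27ac, RNAPII, MED23 and H3K9me3. The share of the 42 genes is above that of all expressed genes in every H3K27ac, RNAPII and MED23 library, and both are lower at 24 h in RNAPII (88.1% and 85.7% to 59.5% and 52.4% of the 42 genes) and MED23. Expressed genes had a mean of at least 1 TPM with DMSO, and the sets were not matched for level.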

How the data were processed

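The RNA-seq tables hold TPM, FPKM and coverage per gene, made and deposited by the authors with cutadapt 2.4, STAR 2.7.5a and StringTie 2.0.6 per the processing notes. Coverage was used, with FPKM, only to estimate relative depth. TPM was used for RNA-seq. The authors' TT-SLAM-seq table gives FPKM of T-to-C converted reads per gene, introns included. The authors' peak files give fold enrichment and −log10 p-values from peak calling in each library, and fold enrichment was used. The members and gene lists were chosen with earlier results of these data known.

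Here log2(value + 0.5) was fitted with limma 3.58.1 in R 4.3.3, with Benjamini-Hochberg adjustment over all genes with at least 1 TPM (0.5 FPKM for TT-SLAM-seq) in 3 or more libraries. The time course (15 libraries), TT-SLAM-seq (12), the shERV line (9) and the cell types (9) were fitted separately, and a 12-library interaction compared the 24 h effects. In TT-SLAM-seq, 100.0% of low FPKM values were whole reads within 0.1, and limma-voom was run on those reads. Values per library were named for Atf4, Chac1, Ddit3, Trib3 and Asns and, in each comparison, for up to 3 members with the largest rise and fall past the threshold without overlap, plus up to 2 genes of the other lists past 2-fold. In simulated data the fits recovered 191, 121, 196, 191 and 182 of 200 changed genes for the time course, TT-SLAM-seq, shERV, cell type and interaction fits (17922, 13357, 16166, 17458 and 17653 genes). False calls were 14, 7, 12, 9 and 10. The changed genes were moved by 1 on the log2 scale and all had a mean log2 value above 2. Most members stood below that level in TT-SLAM-seq, so its share recovered does not describe them. Alternatives were a pseudocount of 0.1, no filter, centring, a replicate block, leaving out libraries, and, for peaks, the 10000 strongest peaks, peaks over the start and, added after seeing the data, peaks near any RefSeq start. Positions and sequences are on mm10 (GRCm38), and 1 promoter site is not reported here.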

Additional observations from a re-analysis of the deposited data

Results flagged for a closer look

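The 24 h effect of dTAG-13 in the shERV line differed from that in the time course in 41 of the 42 genes by the interaction term of limma (adjusted p below 0.05). Over all 17653 genes the effect in the shERV line was higher for 26.2% and lower for 25.2%. Line, library kit and any difference in culture cannot be told apart in this test. The time-course effect uses the DMSO libraries against which the genes were known to be lower at 2 h, which favours positive values. Values are the log2 effect in the shERV line minus that in the time course.

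Among the transcription factors and feedback regulators the values were 0.86 for Atf4, 1.50 for Atf5, 1.25 for Atf3, -0.67 for Ddit3, 0.70 for Cebpb, 1.71 for Trib3 and 0.67 for Nupr1. Among the stress effectors they were 2.69 for Chac1, -1.11 for Ddit4, 1.37 for Sesn2 and 1.61 for Stc2. Among the synthesis enzymes they were 0.77 for Asns, 0.87 for Psat1, 0.48 for Phgdh, 0.60 for Psph, 0.55 for Shmt2, 1.25 for Mthfd2, 0.82 for Aldh18a1, -0.64 for Pycr1, 0.99 for Cth and 0.65 for Gpt2. Among the transporters they were 1.24 for Slc7a11, 0.90 for Slc7a3, 1.06 for Slc7a5, 1.32 for Slc7a1, 0.72 for Slc3a2, 0.56 for Slc38a2, 1.24 for Slc6a9 and 1.19 for Slc1a4. Among the synthetases they were 0.89 for Aars, 0.73 for Cars, 0.60 for Gars, 0.52 for Sars, 0.58 for Wars, 0.94 for Nars, 0.68 for Mars, 0.43 for Eprs, 0.67 for Iars, 0.64 for Lars, 0.80 for Yars and 0.75 for Tars. Slc7a11 was at or below 0.627 TPM in every shERV library, so its value rests on low levels.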

How the results depend on the processing

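Of 1262 values for 119 pairs of a named gene and a comparison, 1166 kept direction and side of the threshold, 66 fell below it and 9 rose past it. Another 19 changed sign with neither the main nor the alternative value past the threshold, and 2 changed sign with 1 of them past it. The last 2 both came from centring: Pycr1 at 24 h went from 0.26 to -0.03, and Asns from 2 h to 24 h from 0.00 to -0.28. Centring also changed counts. In the 6 h TT-SLAM-seq comparison it left 1 gene higher with 1 lower, in the 24 h one 5 higher with 10 lower, in the shERV line 28 lower with dTAG-13 and 28 higher with Dox, in parental cells 3 lower, and in NPCs 4 higher. By limma-voom TT-SLAM-seq called 2 genes higher at 2 h, 3 higher with 2 lower at 6 h, while 7 went up with 12 down at 24 h. With no filter 1 was higher at 6 h. Leaving out 1 library gave 0 to 2 lower (main 3) in TT-SLAM-seq at 2 h, 0 to 2 higher (main 6) at 6 h, 9 to 19 lower (main 10) in the shERV line and 11 to 17 higher (main 18) with Dox. The mean change in genes with an RNAPII peak was -7.50 for the 10000 strongest peaks and -16.50 for peaks over the start, and for MED23 it was -19.50, with -12.50, -24.00 and, for any RefSeq start, -16.00.

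The replicate numbers were not taken as pairs, since same-number correlations were not all over 0.1. They ran from -0.06 to 0.12 in the time course, -0.16 to 0.18 in TT-SLAM-seq, -0.20 to 0.06 in the shERV line and -0.03 to 0.11 across cell types, and 12 of 15, 6 of 12, 2 of 9 and 6 of 9 libraries correlated best with their own number, which for the time course is a hint from the data that numbers may carry something shared. The replicate block gave 3 higher in TT-SLAM-seq at 6 h, where Aldh18a1, Cars and Iars were no longer called, and Slc3a2 at 2 h then had an adjusted p of 0.0574. It moved no other count of the 42 genes over 1.5-fold. Depth limits TT-SLAM-seq for low genes such as Chac1.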
